A study of Mus musculus with 6 samples.

Results

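The mouse genes whose symbols begin with Zfp and a number encode zinc finger proteins, and they were taken here from a transcriptome of leukaemic progenitors with and without Dot1l, the gene of the only known histone H3 lysine 79 methyltransferase. Of 304 such rows considered, 239 had a mean of at least 1 FPKM over the 6 libraries (fragments per kilobase of transcript, scaled to the library's mapped fragments) and no placeholder in any library. They were chosen by symbol and by this mean level. These 239 rows carry 236 different symbols and are part of 31626 rows in each table. A further 63 Zfp rows lay below the filter, 14 of them listed at 0 in every library, and the rows of Zfp758 and Zfp740 held a placeholder value. The filter used the mean of all libraries, and the fall of Zfp503 was known when the set was defined, so the values of Zfp503 are given as a description with no test, and it is left out of the counts of called genes unless a count is said to include it. Just inside the filter lay Zfp78 (mean 1.01 FPKM) and Zfp580 (1.09 FPKM), and just outside it lay Zfp28 (0.978 FPKM) and Zfp14 (0.901 FPKM).

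The cells were common myeloid progenitors of C57Bl/6 mice, transformed by the retrovirus MSCV-MN1-IRES-GFP, which carries the leukaemia oncogene MN1 and a green fluorescent reporter. All of them carried Dot1l flox/flox alleles and MN1, and grew in methylcellulose with serum, IL3, IL6 and SCF. One group of 3 libraries received a control vector and the other group of 3 received Cre recombinase, which gives the genotype Dot1l -/-, and both were sorted at day 7. No cells with Cre and an intact Dot1l gene are among the samples, so an effect of Cre itself and an effect of Dot1l loss cannot be told apart. Nothing in the labels ties the replicates to different cultures or mice. The p-values therefore cover the spread among these 6 libraries, and that spread may be technical.

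A zinc finger is a short protein loop held in shape by a zinc ion. Most Zfp proteins carry rows of the C2H2 type, in which paired cysteines and histidines hold the zinc and each finger contacts a few bases of DNA. Many also carry a KRAB box, a domain that recruits the corepressor TRIM28 and, through it, histone H3 lysine 9 methyltransferases and DNA methylation, best known for silencing retroelements and keeping imprints. A few carry CCCH fingers instead and bind RNA. The Zfp36 proteins of this kind bind AU-rich elements and bring the transcript to the deadenylation and decapping machinery.

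Dot1l itself measured 20.2, 22.6 and 19.6 FPKM in the control libraries and 8.24, 8.17 and 5.80 FPKM in the Dot1l-deleted libraries, a 2.81-fold lower mean. The third Dot1l-deleted library stood apart: the median Zfp row lay 0.330 below its own 6-library mean on the log2 scale there, against medians between 0.0078 and 0.108 above it in the other 5, and 10 rows held 39.0% of its summed FPKM against 6.59% to 10.8% elsewhere. Results are therefore given for the values as deposited, after median-of-ratios scaling of the libraries, and without that library. The cells' make-up also differed. All 5 markers of stem and progenitor cells fell (summed level 1095 to 1115 FPKM in controls, 161.8 to 231.2 after deletion), while 7 of 7 tested neutrophil markers rose (1579 to 1845 against 22970 to 27980 FPKM) and 4 of 4 monocyte markers rose (87.57 to 111.3 against 812.3 to 1071 FPKM). Markers of B cells summed to at most 0.145 FPKM in any library, with 2 of 4 listed at 0, and those of T and NK cells to at most 0.162 FPKM, with 3 of 5 listed at 0. The part of this shift in the Zfp values was not tested, and in bulk RNA fewer cells of a type and less RNA per cell cannot be told apart.

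**Figure D1:**
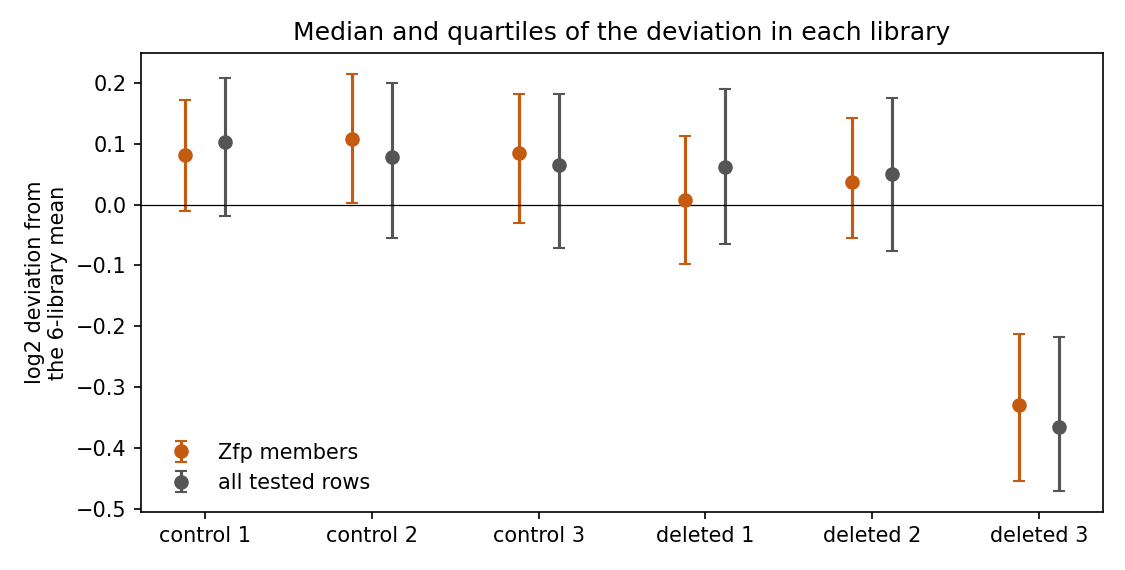
Deviation of each row from its mean over the 6 libraries (vertical axis, log2 scale of FPKM + 1), as the median (point) and quartiles (bar) of the 239 Zfp rows in orange and all 11924 tested rows in grey, by library. The third Dot1l-deleted library lies lower for both sets, with medians of -0.330 and -0.366.

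Of the 238 Zfp genes other than Zfp503, 5 rose and 28 fell after Dot1l deletion at an adjusted p under 0.05, which is 2.1% and 11.8% of them. Among all 11924 tested rows 7.43% rose and 12.2% fell, 19.7% in either direction, so the share that fell was near the background and the share that rose was below it. The 5 that rose were Zfp36l1, Zfp516, Zfp57, Zfp652 and Zfp710. The falls were led by Zfp385a, Zfp90 and Zfp608. With the libraries scaled by median of ratios there were 30 rises and 53 falls (12.6% and 22.3%, against 23% and 22.3% of all tested rows, of which 45.3% were called either way). Leaving out the third Dot1l-deleted library gave 16 rises and 49 falls (6.72% and 20.6%, against 17.4% and 21%, and 38.4% either way). The 5 rises and 28 falls were called in the same direction in both of these alternatives. Without 1 control library there were 2 or 3 rises (0.84% to 1.26%, against 5.54% to 5.86% of all tested rows) and 5 to 9 falls (2.1% to 3.78%, against 6.4% to 6.94%). Without the first or second Dot1l-deleted library there were 3 rises (1.26%, against 5.87% and 5.75%) and 20 or 21 falls (8.4% and 8.82%, against 11.2% and 9.99%). The 4 members with a mean under 1 FPKM in one group, Zfp316, Zfp458, Zfp78 and Zfp105, were not called with the values as deposited. Zfp78 was called higher after scaling (limma adjusted p = 0.0128). It passed the filter through 1 group, so that call is not read as support.

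Changes of the Zfp genes were mostly small. The median log2 fold change was -0.15 (quartiles -0.33 and 0.003), beside -0.16 for all tested rows, and after scaling both medians were near 0 (-0.01 and 0.001). A log2 change of at least 0.5 in size was found in 12.97% of the Zfp genes against 24.5% of all tested rows. One of at least 1 was found in 0.837% against 9.64%. The medians and shares include Zfp503, which is 1 of the 2 Zfp genes behind the 0.837%. With the values as deposited and Zfp503 left out, Zfp385a was the 1 gene called and lower by at least 1 on the log2 scale. None was called and higher by that much, and the shares of all tested rows were 3.43% lower and 4.18% higher. This turned with the processing: after scaling Zfp385a was at -0.90 while Zfp36l1 (1.12) and Zfp516 (1.12) were called and past 1, and without the third Dot1l-deleted library Zfp385a was at -0.96, Zfp36l1 at 1.05 and Zfp516 at 1.14. The Zfp genes were also less abundant, with a median level of 6.44 FPKM against 14.3 FPKM, and log2(FPKM + 1) compresses the change of low rows. Within the same range of level, from 1 to 5 FPKM, 9.09% of 99 Zfp genes and 35.9% of all tested rows changed by at least 0.5. Between 5 and 15 FPKM the shares were 13.1% of 99 and 26.4%. At 15 FPKM or more they were 22% of 41, Zfp503 included, and 17.6%, so the Zfp share was not the smaller one there. These shares are of the values as deposited, and the difference over 41 genes was not tested.

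**Figure D2:**
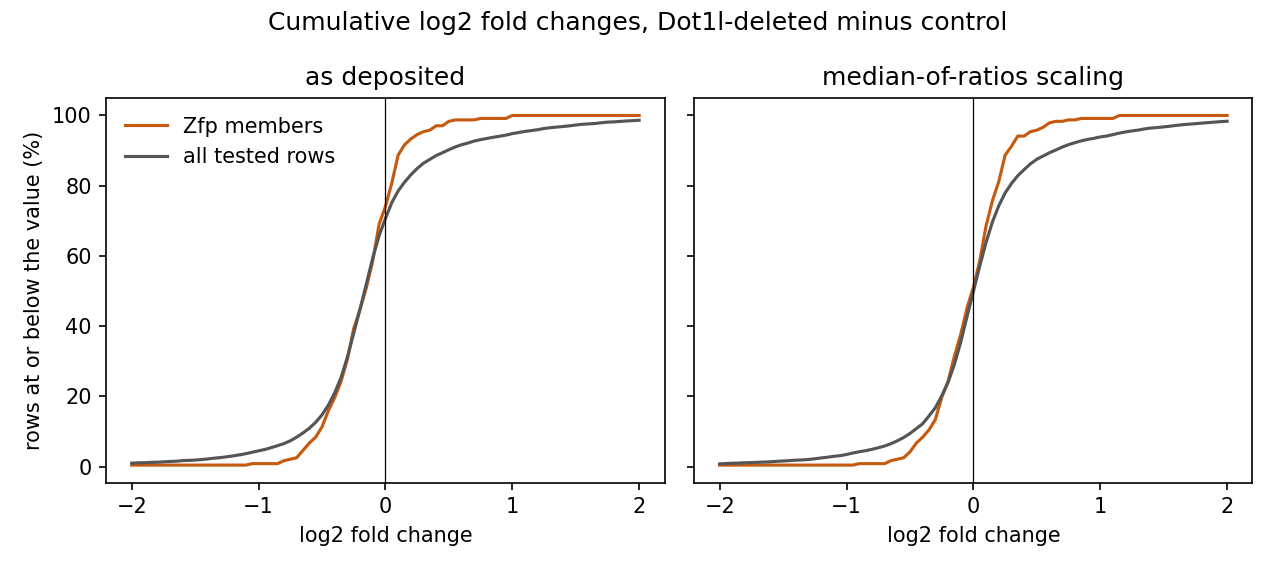
Cumulative share of rows (vertical axis, percent) by log2 fold change, Dot1l-deleted minus control on the log2(FPKM + 1) scale (horizontal axis), for the 239 Zfp rows in orange and all 11924 tested rows in grey, as deposited (left) and after median-of-ratios scaling (right), drawn from -2 to 2. The Zfp curves have shorter tails on both sides, and as deposited 12.97% of Zfp rows against 24.5% of all tested rows lie at least 0.5 from 0.

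Zfp503 (ENSMUSG00000039081) showed the largest fall in the set. It encodes a corepressor of the NET family, known from the developing brain and limb, which represses transcription together with Groucho proteins. Its level was 53.8, 57.3 and 56.3 FPKM in the control libraries and 4.41, 2.95 and 3.03 FPKM in the Dot1l-deleted libraries. The groups were far apart, and the third Dot1l-deleted library was not the lowest. The means were 55.8 ± 1.79 and 3.46 ± 0.820 FPKM (SD, n = 3 each), a 16.1-fold lower level and a log2 fold change of -3.68 (SE 0.155). It was the 18th largest fall among all tested rows, and the change was -3.52 after scaling and -3.62 without the third Dot1l-deleted library. The 652-residue protein held no C2H2 finger at the usual spacing, unlike most of the set. Its family partner Zfp703 was not analysed here.

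The 250 bases before the Zfp503 start, chr14:21989602-21989851 on the minus strand of GRCm38.p6 (RefSeq), are shown because this gene had the largest change; capitals would mark any of 5 motifs searched on both strands, and this window held none of them.
Zfp503: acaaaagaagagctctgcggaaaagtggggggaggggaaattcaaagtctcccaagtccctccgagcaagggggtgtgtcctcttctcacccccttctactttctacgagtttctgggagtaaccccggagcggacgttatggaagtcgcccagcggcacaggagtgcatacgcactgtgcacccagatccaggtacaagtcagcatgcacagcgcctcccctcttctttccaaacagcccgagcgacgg
The motifs were the GC box (GGGCGG), the CCAAT box (CCAAT), the TATA box (TATAAA), the AP-1 site (TGACTCA) and the ZNF143 site (ACTACAA), and the window had 13 CpG dinucleotides and 57.2% GC. A missing match says only that these letters are not in this window.

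Among the 6 Groucho corepressor genes, 2 rose and none fell, beside 7.43% and 12.2% of all tested rows. Tle6 rose 2.18-fold, from 5.48 ± 0.0877 to 11.96 ± 2.74 FPKM (SD, n = 3 each), with a log2 fold change of 0.98 (SE 0.161, limma, Benjamini-Hochberg adjusted p = 0.00163). Tle1 rose 1.78-fold, from 13.9 to 24.7 FPKM (log2 fold change 0.77, SE 0.173, limma adjusted p = 0.00976), and its call was lost when control replicate 1 or 3, or replicate 2 of the deleted group, was left out (adjusted p from 0.0520 to 0.0562). After scaling 3 of the 6 rose and 1 fell, beside 23% and 22.3% of all tested rows.

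Of the 3 expressed CCCH genes of the tristetraprolin family, Zfp36l1 rose, Zfp36l2 fell and Zfp36 was not called. Zfp36l1 (ENSMUSG00000021127) was listed at 1.29, 1.33 and 1.33 FPKM in the control libraries and at 3.51, 4.10 and 3.28 FPKM after deletion. The groups did not overlap, and Zfp36l1 had the largest log2 rise of the Zfp genes as deposited, close to that of Zfp516 (0.990). Without the third Dot1l-deleted library Zfp516 was ahead (1.14 against 1.05). The mean of Zfp36l1 went from 1.32 ± 0.0247 to 3.63 ± 0.421 FPKM (SD, n = 3 each), 2.76-fold higher, with a log2 fold change of 0.996 (SE 0.159, limma, adjusted p = 0.00129). Of its 50-base stretches, 3.26% also occur in transcripts of other genes.

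Zfp36l2, needed in mice for blood stem cells, was the most abundant of the 3 and fell. It measured 76.5, 89.2 and 79.9 FPKM in controls and 63.8, 50.4 and 42.5 FPKM after deletion. The groups did not overlap, although the first Dot1l-deleted library was closer to the controls than the other two. The level was 1.57-fold lower, with a log2 fold change of -0.66 (SE 0.183, limma, adjusted p = 0.0296). Its call was lost with no filter on low rows, without any 1 of the 3 control libraries and without Dot1l-deleted replicate 2 (adjusted p from 0.0538 to 0.151). Zfp36, which encodes tristetraprolin itself, measured 9.01, 9.31 and 8.65 FPKM in controls and 6.14, 7.06 and 6.54 FPKM after deletion. Its groups did not overlap, but its log2 fold change of -0.40 (SE 0.127) had an adjusted p of 0.0506 in limma. After scaling that p was 0.179, and with the third Dot1l-deleted library left out it was 0.0139. Zfp36l3 was listed at 0 in every library.

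The 250 bases before the Zfp36l1 start, chr12:80113014-80113263 on the minus strand of GRCm38.p6 (RefSeq), are shown because this member rose while Zfp36l2 fell; capitals mark a TATA box and a CCAAT box on the other strand, which overlap by 1 base.
Zfp36l1: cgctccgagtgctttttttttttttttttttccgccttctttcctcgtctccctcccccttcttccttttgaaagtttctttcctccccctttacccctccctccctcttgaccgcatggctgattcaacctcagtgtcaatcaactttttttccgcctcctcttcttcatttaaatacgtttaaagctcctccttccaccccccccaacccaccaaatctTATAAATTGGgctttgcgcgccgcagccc
This window had 10 CpG dinucleotides and 48.4% GC, both lower than in the Zfp503 window.

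Around the Zfp36 family, 24 genes tied to mRNA decay were tested, with a median log2 fold change of -0.20. Most are deadenylation, decapping and decay factors, but Mapk14, Mapkapk2, Ywhab, Elavl1 and Pabpc1 are of other kinds. Of the 24 none rose and 2 fell, beside 7.43% and 12.2% of all tested rows. The 2 were Dcp1b, a decapping cofactor (7.45 to 3.74 FPKM, log2 fold change -0.85, limma adjusted p = 0.00384), and Pan3, a subunit of a deadenylase (31.0 to 20.2 FPKM, -0.60, adjusted p = 0.0173). Pan3 lost its call without any 1 of the 3 control libraries (adjusted p from 0.0636 to 0.125). After scaling 6 of the 24 rose and 3 fell, beside 23% and 22.3% of all tested rows. The 6 were Mapk14, Dcp2, Cnot6l, Pan2, Ywhab and Pabpc1. The split of this list thus depends on the scaling. Of 13 tested transcripts known for AU-rich elements, 1 rose and 6 fell, and after scaling 4 rose and 6 fell. The shares of all tested rows are those given for the 24 genes. Cxcl10, a chemokine, rose 13.4-fold, from 1.86 to 24.8 FPKM (log2 fold change 3.17, limma adjusted p = 3.96e-07). Il6, an inflammatory cytokine, fell 2.69-fold, from 34.8 to 12.9 FPKM (-1.37, adjusted p = 0.000132), and Ier3, an early response gene, fell 2.51-fold, from 57.9 to 23.1 FPKM (-1.30, adjusted p = 0.000157).

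**Figure D3:**
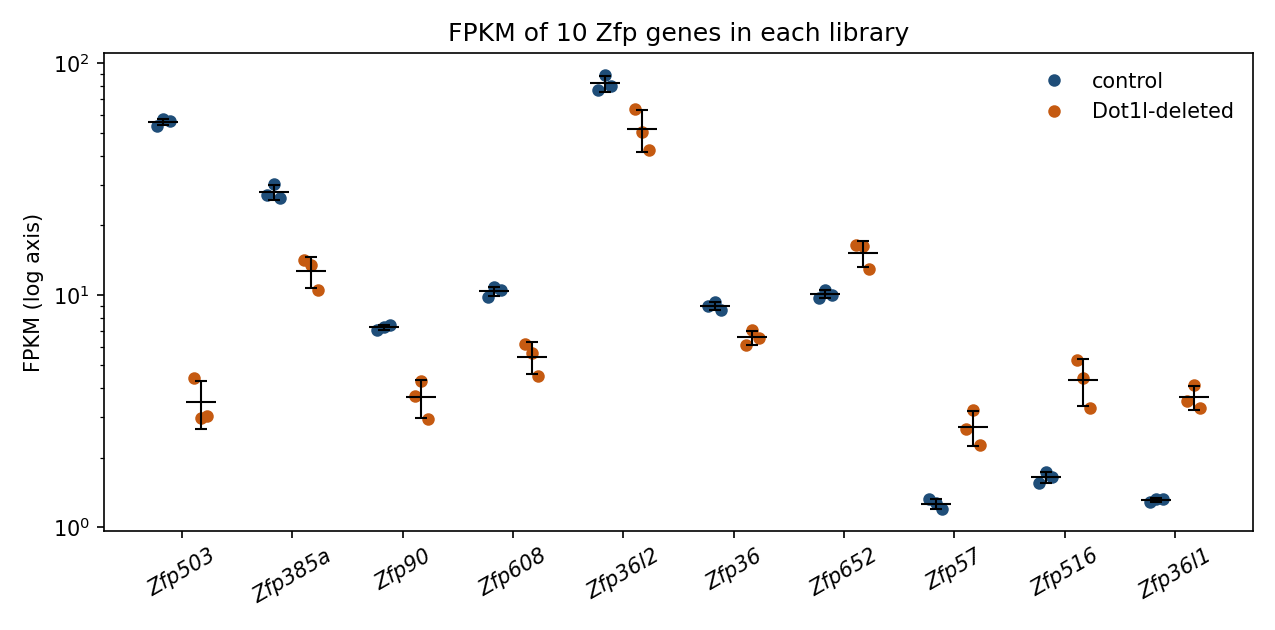
FPKM in each of the 3 control and 3 Dot1l-deleted libraries (points; vertical log axis), with the mean (line) and SD (bar), for 10 Zfp genes, controls in blue and Dot1l-deleted in orange. Zfp503 drops from 53.8 to 57.3 FPKM in controls to 2.95 to 4.41 FPKM after deletion, while Zfp36l1 goes from 1.29 to 1.33 up to 3.28 to 4.10 FPKM.

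Among 13 tested members described as partners or regulators in blood and lymphoid cells, 1 rose and 3 fell, and after scaling 3 rose and 4 fell. Of all tested rows 7.43% rose and 12.2% fell, and after scaling 23% and 22.3%. Zfp385a (ENSMUSG00000000552), an RNA-binding and p53-binding protein known from megakaryocytes, fell most. It measured 27.1, 30.3 and 26.2 FPKM in controls and 14.2, 13.5 and 10.5 FPKM after deletion, with no overlap of the groups. The mean went from 27.8 ± 2.14 to 12.7 ± 1.96 FPKM (SD, n = 3 each), 2.19-fold lower, with a log2 fold change of -1.08 (SE 0.154, limma, adjusted p = 0.000609).

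The annotation gives Zfp385a alternative starts; the 250 bases before the upstream one, chr15:103340087-103340336 on the minus strand of GRCm38.p6 (RefSeq), are shown for comparison with Zfp503, with capitals for 3 GC boxes and 1 CCAAT box read on either strand.
Zfp385a: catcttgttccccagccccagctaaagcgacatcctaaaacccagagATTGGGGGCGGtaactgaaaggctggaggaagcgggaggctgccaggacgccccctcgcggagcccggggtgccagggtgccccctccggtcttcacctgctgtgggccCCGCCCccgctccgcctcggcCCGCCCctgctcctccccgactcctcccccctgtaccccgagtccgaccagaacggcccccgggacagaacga
This window had 19 CpG dinucleotides and 70% GC, and that of the other start had 1 CpG dinucleotide and 61.2% GC, against 13 and 57.2% for Zfp503. The 2 starts thus lie on either side of Zfp503 in CpG number. Over 156 Zfp genes with a single annotated start, 43.6% of such windows held a GC box. The share was 61.9% of 6832 windows of tested rows, also with a single start, and 32.7% of all 32851 promoters. The last set counts every annotated start and is not limited to tested rows, so it is an unlike set. A CCAAT box stood in 40.4%, 37.6% and 33.9% of these sets in turn, and a TATA box in 6.41%, 5.99% and 12.4%. An AP-1 site stood in 1.92%, 2.81% and 4.46%, and a ZNF143 site in 6.41%, 4.63% and 2.81%. The median Zfp window had 13 CpG dinucleotides and 55.8% GC, against 17 and 60% for the tested rows. Motif matches are a description of letters and not of binding.

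Zfp608, which acts in thymocytes on the expression of the Rag genes, fell while its paralog Zfp609, a partner of the cohesin loader, was not called. Zfp608 measured 9.85, 10.8 and 10.5 FPKM in controls and 6.17, 5.66 and 4.47 FPKM after deletion, so the groups did not overlap. Its level was 1.91-fold lower, with a log2 fold change of -0.83 (SE 0.144, limma, adjusted p = 0.00218). Zfp609 measured 9.31, 10.8 and 9.22 FPKM against 10.7, 9.47 and 8.18 FPKM. Its groups overlapped, with a log2 fold change of -0.05 (limma, adjusted p = 0.835). The difference between the paralogs was not tested.

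Zfp652, a partner of the corepressor CBFA2T3, rose 1.51-fold, from 9.72, 10.6 and 10.1 FPKM to 16.4, 16.3 and 12.98 FPKM, without overlap. Its log2 fold change was 0.54 (SE 0.140, limma, adjusted p = 0.0207). This call was lost without any 1 of the 3 controls and without Dot1l-deleted replicate 1 or 2 (adjusted p from 0.0783 to 0.131). Zfp91, an atypical ubiquitin ligase, fell 1.46-fold, from 38.5, 42.8 and 41.4 FPKM to 30.02, 30.7 and 23.6 FPKM. Its log2 fold change of -0.53 (SE 0.157, limma, adjusted p = 0.0372) also lost its call without any 1 of those 5 libraries (adjusted p from 0.0552 to 0.179). Members of this group that were not called as deposited included Zfp384, a fusion partner in leukaemia (log2 fold change 0.05). Others were Zfp281 (0.03) and Zfp148 (-0.27), which bind GC-rich promoters, and Zfp318 (0.08), which acts in IgD splicing of B cells. After scaling Zfp384 (0.22, limma adjusted p = 0.0145) and Zfp281 (0.20, adjusted p = 0.0361) were called higher, and Zfp148 and Zfp318 were not called.

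Of 9 tested factors of retroelement silencing, imprinting and pluripotency, 1 rose and none fell. After scaling 3 rose and none fell, and without the third Dot1l-deleted library 3 rose and 1 fell. The shares of all tested rows were 7.43% and 12.2% as deposited, 23% and 22.3% after scaling, and 17.4% and 21% without that library. Zfp57, a KRAB protein that keeps imprints, was the 1 that rose, from 1.32, 1.27 and 1.20 FPKM to 2.65, 3.20 and 2.27 FPKM with no overlap. The rise was 2.14-fold, with a log2 fold change of 0.71 (SE 0.172, limma, adjusted p = 0.0153), and its call was lost without control replicate 3 (adjusted p = 0.0552). Zfp445, also an imprint factor, measured 19.3, 21.02 and 22.5 FPKM against 20.7, 20.4 and 15.8 FPKM, with overlapping groups. Its log2 fold change was -0.14 (limma, adjusted p = 0.545).

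Zfp568, which represses a placental Igf2 transcript, measured 6.94, 7.84 and 7.54 FPKM in controls and 12.6, 9.46 and 7.81 FPKM after deletion. The groups overlapped narrowly, and the log2 fold change of 0.35 had an adjusted p of 0.178 in limma, which was 0.00808 after scaling and 0.0341 without the third Dot1l-deleted library. Zfp809, which recognises murine leukaemia virus sequence in embryonic cells, measured 8.97, 9.77 and 9.58 FPKM against 7.95, 8.09 and 6.24 FPKM. Its groups did not overlap, and its log2 fold change was -0.32 (limma, adjusted p = 0.149). That p was 0.0732 after scaling and 0.0416 without the third Dot1l-deleted library. Zfp42, a pluripotency marker, was listed at 0 in every library.

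Among 6 tested partners of chromatin complexes, 1 rose and none fell, and after scaling 1 rose and 2 fell. Of all tested rows 7.43% rose and 12.2% fell, and after scaling 23% and 22.3%. Zfp516 (ENSMUSG00000058881), a partner of LSD1 complexes known as an activator in brown fat, was the one that rose. Its level was 1.56, 1.74 and 1.64 FPKM in controls and 5.28, 4.40 and 3.28 FPKM after deletion. Every Dot1l-deleted library lay above every control, and the third was the lowest of them. The mean rose 2.62-fold, from 1.65 ± 0.0906 to 4.32 ± 1.003 FPKM (SD, n = 3 each), with a log2 fold change of 0.99 (SE 0.177, limma, adjusted p = 0.00271). Zfp687 (log2 fold change -0.31) and Zfp592 (-0.28), which form a complex with each other, were not called as deposited. Neither was Zfp827 (-0.41), which recruits the NuRD complex to telomeres. After scaling Zfp827 was called lower (-0.29, limma adjusted p = 0.0206), and Zfp687 and Zfp592 were not called.

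None of 10 tested factors of RNA processing, ribosomes and the spindle was called with the values as deposited, against 19.7% of all tested rows. After scaling 3 rose and 1 fell, beside 23% and 22.3% of all tested rows. At an unadjusted p under 0.05, 69 of all 239 Zfp genes, Zfp503 included, passed in limma. The share of all tested rows that passed was not counted, so this number is not read as a result about the Zfp genes. Zfp207, a spindle protein, was the most abundant Zfp gene, at 156, 158 and 157 FPKM in controls and 168, 162 and 121 FPKM after deletion. Its groups overlapped, with a log2 fold change of -0.08 (limma, adjusted p = 0.781). After scaling the value was 0.10 and was called higher (limma adjusted p = 0.0436). Zfp326, a factor in transcript elongation and splicing, measured 17.8, 18.2 and 17.9 FPKM against 15.3, 14.3 and 10.9 FPKM without overlap. Its log2 fold change of -0.40 had an adjusted p of 0.0968 in limma and of 0.00457 after scaling.

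Members carrying a KRAB box numbered 82 of the 227 with a matched protein, by a letter pattern that misses diverged boxes. Of these 1 rose and 6 fell as deposited, with a median log2 fold change of -0.12. Among the other 145 there were 4 rises and 22 falls, Zfp503 included, with a median of -0.20. As deposited, 7.43% of all tested rows rose and 12.2% fell. The difference between the classes was not tested. After scaling the counts were 8 and 14 with the box and, again with Zfp503, 20 and 39 without it. The scaled shares of all tested rows were 23% and 22.3%. KRAB proteins had a median of 11 C2H2 fingers and the others 7. Zfp90 and Zfp184 were the KRAB members with the largest falls among those called.

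Zfp90 measured 7.11, 7.28 and 7.46 FPKM in controls and 3.68, 4.29 and 2.93 FPKM after deletion, with no overlap. It has 13 fingers, and its log2 fold change was -0.85 (SE 0.149, limma, adjusted p = 0.00244). Zfp184, with 18 fingers, measured 3.90, 4.21 and 4.15 FPKM against 2.10, 2.50 and 1.71 FPKM. Its groups were also separate, at a 1.94-fold lower level and a log2 fold change of -0.72 (SE 0.158, limma, adjusted p = 0.00882).

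Rises and falls were found in each class of finger number and among clustered and single genes. The counts that follow are as deposited, where 7.43% of all tested rows rose and 12.2% fell. Differences between the classes were not tested. Members with 0 to 3 fingers had 2 rises and 7 falls (Zfp503 included) among 36, those with 4 to 9 had 1 and 12 among 87, and those with 10 or more had 2 and 9 among 104. Of 110 members lying directly beside another Zfp gene 1 rose and 7 fell, and of 124 others 4 rose and 20 fell, a count that includes Zfp503. In all, 60 members lay in 11 runs of at least 3 members. A run of 15 Zfp genes held 11 members, with log2 fold changes from -0.52 to 0.35 and 1 fall, Zfp260. Genes in this run thus had values on both sides of 0. Transcripts of 23 members shared over 10% of their 50-base stretches with other genes, up to 100% for Zfp708 and 98.0% for Zfp82, so reads could be split between copies; 3 of the 23 fell and none rose. Antisense exons overlap 63 members, 3 of which rose and 12 fell, and the use of strand in the authors' counting is not stated in what was available. Of the called genes described with values here, Zfp36l1, Zfp36l2, Zfp90, Zfp608, Zfp184, Zfp652 and Zfp710 have such a partner, so their reads and those of the partner may be mixed. Zfp91 and Zfp652 also overlap exons of a gene on their own strand, Cntf and Phospho1. The symbols Zfp239, Zfp407 and Zfp826 stand on 2 rows each, and of these 6 rows 1 of Zfp239 fell (log2 fold change -0.49, limma adjusted p = 0.0330).

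Around the KRAB proteins, 22 silencing cofactors were tested, with a median log2 fold change of -0.24. None rose and 3 fell, beside 7.43% and 12.2% of all tested rows. After scaling 3 rose and 5 fell, beside 23% and 22.3%. Dnmt3b, a DNA methyltransferase, fell 2.34-fold, from 26.3 ± 0.733 to 11.3 ± 2.09 FPKM (SD, n = 3 each; log2 fold change -1.17, SE 0.158, limma adjusted p = 0.000418). Cbx3, a heterochromatin protein (-0.72, adjusted p = 0.0366), lost its call after scaling (adjusted p = 0.133), with quantile normalization (0.109), with no filter (0.128), and without control replicate 2 (0.141) or 3 (0.164) or Dot1l-deleted replicate 1 (0.125) or 3 (0.101). Suv39h2, a histone H3 lysine 9 methyltransferase (-0.52, adjusted p = 0.0374), lost it with no filter (0.0730), with no variance trend (0.0536), without any 1 control library (0.139 to 0.182) and without Dot1l-deleted replicate 1 (0.0755).

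Other zinc finger families, matched by symbol (Zbtb, Zkscan and Zscan, Zc3h, Ikzf, Klf and Sp), gave 77 tested genes. Of these 2 rose and 9 fell, beside 7.43% and 12.2% of all tested rows. The median log2 fold change of the 77 was -0.16 beside -0.15 for the Zfp genes. Klf3, a transcriptional repressor in red cell and other lineages, rose 2.40-fold (log2 fold change 1.02, limma adjusted p = 0.000886). Zc3h7b, a CCCH protein, fell 1.94-fold (-0.93, adjusted p = 0.00176), and Zbtb7b, a regulator of CD4 T cells, rose 1.78-fold (0.75, adjusted p = 0.00380).

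The remaining falls were smaller. After Zfp503, Zfp385a, Zfp90 and Zfp608, the next by size were Zfp664, Zfp184, Zfp422, Zfp362, Zfp507 and Zfp358, with log2 fold changes from -0.79 to -0.66. Zfp664 measured 24.1, 28.6 and 25.2 FPKM in controls and 16.6, 15.5 and 11.9 FPKM after deletion, 1.76-fold lower (-0.79, SE 0.160, limma adjusted p = 0.00576). Zfp422, first described in tooth development, measured 55.1, 60.4 and 56.9 FPKM against 39.1, 38.6 and 28.4 FPKM (-0.70, limma adjusted p = 0.0146). Both had separate groups. Without control replicate 2 the calls of Zfp664, Zfp362, Zfp507, Zfp358 and Zfp422 were lost (adjusted p from 0.0535 to 0.0893). Zfp358 and Zfp422 were also lost without control replicate 1 (0.0699 and 0.0584), and Zfp422 without control replicate 3 (0.0689). Another 17 members fell by 0.65 to 0.46 on the log2 scale, among them Zfp800, Zfp1, Zfp704, Zfp367 and the gene deposited as Zfp238, now Zbtb18.

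Zfp710 rose 1.41-fold, from 8.90, 10.3 and 9.56 FPKM to 14.8, 14.2 and 11.7 FPKM without overlap (log2 fold change 0.46, SE 0.140, limma adjusted p = 0.0448). It lost its call with no filter, with no variance trend, without any 1 control and without Dot1l-deleted replicate 1 or 2 (adjusted p from 0.0647 to 0.234). A simple count of separation gave 11 members (4.6%) with every Dot1l-deleted library above every control and 82 (34.3%) with every one below, Zfp503 included, against 10.7% and 34.1% of all tested rows. Across the 17 alternative settings, 6 of the 33 calls were never lost, those of Zfp385a, Zfp90, Zfp608, Zfp184, Zfp516 and Zfp36l1.

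**Figure D4:**
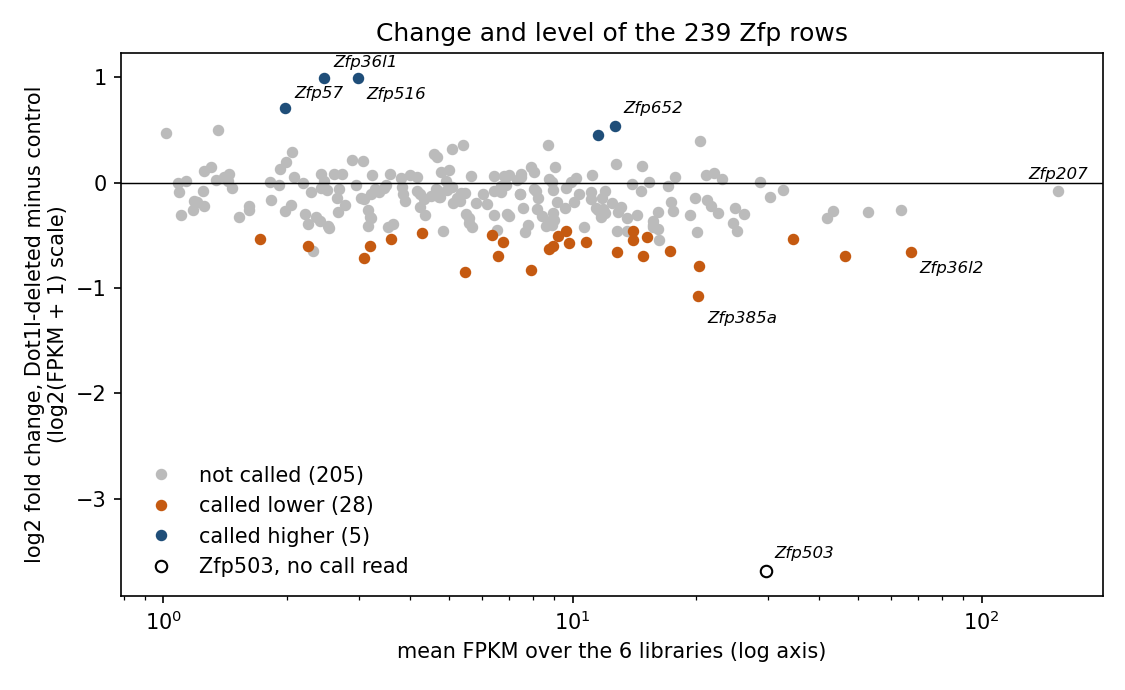
Log2 fold change on the log2(FPKM + 1) scale (vertical axis) against mean FPKM over the 6 libraries (horizontal log axis) for the 239 Zfp rows, with 5 called higher in blue, 28 called lower in orange, 205 not called in grey and Zfp503, for which no call is read, as an open circle. Zfp503 stands alone at -3.68, and the other rows lie between -1.08 and 0.996.

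Some members varied within a group. Zfp39 measured 4.12, 4.28 and 3.76 FPKM in controls and 4.22, 3.44 and 8.15 FPKM after deletion, so the third Dot1l-deleted library was high for this gene although it was low for most. Zfp771 measured 8.25, 9.63 and 6.95 FPKM against 15.1, 7.53 and 6.80 FPKM, where the first Dot1l-deleted library stood high. Neither was called (limma adjusted p = 0.512 and 0.705). Below the filter, 49 Zfp rows were above 0 in at least 1 library. Every Dot1l-deleted library lay above every control in 18 of these (36.7%) and below in 3 (6.12%), beside 14.3% and 8.03% of all rows at such levels. They were not tested.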

How the data were processed

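The authors deposited 1 table per library with an FPKM value per Ensembl gene. The submitters' processing notes list Cuffdiff, SAMtools, GSNAP, CASAVA 1.8.2 and the build mm9 without saying what each was used for; per the labels the libraries came from a stranded mRNA kit. FPKM gives no read counts, so no counting intervals are given. The 378 rows with 999999999 in any library were left out. The 11924 rows with a mean of at least 1 FPKM were fitted with limma 3.58.1 in R 4.3.3 (lmFit, eBayes with trend) on log2(FPKM + 1), which understates the change of low genes. Tests were two-sided, with Benjamini-Hochberg adjustment over all fitted rows and a threshold of 0.05; fold changes without log2 are ratios of mean FPKM. The script was tested on simulated data. Members and lists were chosen with earlier results of these data known, and the Klf and Sp pattern was narrowed after its values were seen, to remove genes of another kind. Named genes were Dot1l, Zfp503, the Zfp36 family, the 10 called members with the largest change each way, rows next to the filter and up to 4 members of each role list or 3 genes of each related list by smallest adjusted p; Zfp39, Zfp771 and a few other uncalled members were named after their values were seen. Fingers and KRAB boxes were counted in GENCODE M21 proteins (C-x2-4-C-x12-H-x3-5-H; KRAB pattern in the first 300 residues), for which 227 members had a match, and neighbours came from RefSeq, where 234 had a match. Promoter windows came from RefSeq (GRCm38.p6), where 195 members had a match. Alternatives were other pseudocounts, filters, scalings, a fit without variance trend, a replicate block, summed rows of 1 symbol and leaving out each library. One further gene with this symbol pattern is not reported here.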

Additional observations from a re-analysis of the deposited data

Results flagged for a closer look

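Among the 18 Zfp rows below the filter whose Dot1l-deleted libraries all lay above the controls, 3 had at least 2 times the control mean and at least 0.5 FPKM after deletion, and are given here because they entered no test. Zfp819, a KRAB protein known from embryonic stem cells, was listed at 0, 0.0525 and 0.0214 FPKM in controls and at 0.561, 0.874 and 0.770 FPKM after deletion, a mean of 0.735 FPKM. Zfp174 averaged 0.309 FPKM in controls and 0.661 FPKM after deletion. Zfp114 averaged 0.255 FPKM in controls and 0.616 FPKM after deletion. How many reads stand behind these low values was not derived here.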

How the results depend on the processing

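The counts depend on scaling and on single libraries. The median log2 fold change of the Zfp genes also changed, from -0.154 as deposited to -0.013 with median-of-ratios scaling. Leaving out 1 library gave medians from -0.24 to -0.046. The SD between libraries of the median Zfp deviation was 0.145, and it includes the low value of Dot1l-deleted replicate 3 (-0.330). A move smaller than this SD is therefore not read as stability. Counts here include Zfp503. The number of Zfp genes called higher was 5 as deposited (2.09%, against 7.43% of all tested rows) and 30 with median-of-ratios scaling (12.6%, against 23%). It was 25 with quantile normalization (10.5%, against 20.2%) and 18 with scaling and the third Dot1l-deleted library left out (7.53%, against 19.5%). Leaving out 1 library gave 2 to 16 (0.837% to 6.69%, against 5.54% to 17.4%). The number called lower was 29 as deposited (12.1%, against 12.2%) and 16 with no filter (6.69%, against 6.68%). It was 54 with median-of-ratios scaling (22.6%, against 22.3%) and 65 with quantile normalization (27.2%, against 26.8%). Leaving out 1 library gave 6 to 50 (2.51% to 20.9%, against 6.4% to 21%). Among all tested rows 2345 were called, and 5401, 5608 and 4567 with these 3 settings in turn (median-of-ratios, quantile, both changes together), and 1428 to 4573 leaving out 1 library. KRAB cofactors called went from 3 to 1 with no filter, 8, 9 and 7 with the 3 settings, and 1 to 6 leaving out 1 library. Other zinc finger families went from 11 to 27, 29 and 20, and 3 to 21 leaving out 1 library. The list of mRNA decay factors and related genes went from 2 to 9, 11 and 5, and 1 to 7 leaving out 1 library. The causes were not tested.

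Zfp580, at the edge of the filter with a log2 fold change near 0 (-0.01), changed sign with a pseudocount of 5 (0.0024), with median-of-ratios scaling with or without a replicate block (0.069), with scaling and Dot1l-deleted replicate 3 left out (0.21), and as a difference from the median of all tested genes (0.16), an alternative added after seeing the data. Leaving out 1 library gave -0.13 to 0.19. For the 30 single genes followed, 31 values lost and 29 gained a call, and 470 kept direction and side of the threshold.

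Same-numbered libraries of the 2 groups did not deviate together (correlations of -0.03, -0.04 and 0.01), so the numbers were not read as pairs. With a replicate block 5 Zfp genes (2.09%) were called higher and 35 (14.6%) lower, beside 9.66% and 15.1% of all tested rows, 2953 in all. With the replicate block and median-of-ratios scaling 24 Zfp genes (10%) were called higher and 39 (16.3%) lower, beside 19.3% and 18.1% of all tested rows. In all 4461 rows were called, with 6 KRAB cofactors, 18 genes of other zinc finger families and 7 genes of the mRNA decay list. The tables hold no read counts, so the depth behind low values limits what can be said of them.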
